A study of Mus musculus with 2 samples.

Results

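Oxidative phosphorylation is carried out by 5 protein complexes of the inner mitochondrial membrane, and 94 nuclear genes of this system were examined here in single mouse embryos. They were the protein-coding genes whose symbols start with Nduf, Uqcr, Atp5, or Cox followed by a digit from 4 to 8, together with Sdha, Sdhb, Sdhc, Sdhd and the cytochrome c gene Cycs, among 52366 genes in the deposited table. The 94 comprised 36 subunits of complex I and 8 of its assembly factors, 4 subunits of complex II, 8 genes of complex III, cytochrome c, 20 genes of complex IV and 17 of complex V. Ndufa4 and its relative Ndufa4l2 were placed with complex IV, where the Ndufa4 protein is found, although both are named for complex I.

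The embryos were pseudoblastocysts, that is, cavitated embryos collected whether or not they held an inner cell mass. All came from B6D2F1 eggs fertilized in vitro with ICR sperm, had the zona pellucida removed with Actinase E, and were collected at 96 h post insemination (hpi). All were cultured at an oxygen level below that of air. The 1C embryos developed from whole zygotes, 2CB embryos from a single blastomere isolated at the 2-cell stage at 24 hpi, and 4CB and 8CB embryos from a single blastomere isolated at the 4-cell or 8-cell stage, both at 48 hpi. There were 6 embryos of each kind, and each embryo carried a barcode of its own within 1 of 2 pooled libraries. Whether embryos of 1 kind included sister blastomeres of the same zygote is not given in the sources used here.

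Complex I takes electrons from NADH and complex II takes them from succinate, and both pass them to ubiquinone. Complex III carries them on to cytochrome c, and complex IV hands them to oxygen. Complexes I, III and IV pump protons across the inner membrane, and complex V, the ATP synthase, uses the returning protons to make ATP. Mouse embryos are known to turn to oxidative phosphorylation more strongly as they form a blastocyst, above all in the trophectoderm, whose cells drive the fluid into the cavity with an ATP-consuming sodium pump. A few subunits are encoded in mitochondrial DNA, and all others are made from nuclear genes and imported.

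Libraries were made by CEL-Seq2, which tags the 3' ends of transcripts with unique molecular identifiers (UMIs), so counts come from 3' ends and not from fragments along the gene. They are called UMIs here as deposited, but the largest, 53029 for a gene in an embryo, exceeds the number of different 6-base UMIs. Whether each count is a number of molecules, or in part of reads, is therefore uncertain, and this holds for every UMI and CPM value given. Total UMIs ranged from 70941 to 368348 in the 1C and 8CB embryos and from 132725 to 1507471 in the 2CB and 4CB embryos. The labels name 2 library pools, one of the 1C and 8CB embryos and the other of the 2CB and 4CB embryos. The comparison of 2CB and 4CB with 1C and 8CB embryos is therefore the same division as that of the pools, and stage and pool cannot be told apart in it. The comparisons of 4CB with 2CB and of 8CB with 1C embryos lie within a pool. All 13 protein-coding genes of mitochondrial DNA were at 0 UMIs in the table, so the subunits they encode were not analysed here.

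The 94 genes took 151789 of 9610785 UMIs. One of them, Cox8b, had 0 UMIs, 4 had 1 to 9, and 58 had at least 1 UMI in every embryo. The 5 genes with the most UMIs, Cox6c, Atp5d, Ndufa3, Ndufa10 and Atp5a1, held 39.5% of the UMIs of all 94. Counts scaled to the same total of UMIs in every embryo, as counts per 1e6 UMIs (CPM), are therefore summed below both with and without these genes. A filter on low counts kept 5940 genes of the table and 67 of the 94. Since a gene can pass that filter through the embryos in which it is high, counts over the 67 are a description and not evidence on all 94.

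Summed over the 94 genes, the level was 9027 to 13325 CPM in 1C embryos, with a median of 11648, and 11434 to 13062 CPM in 8CB embryos, with a median of 12478. It was 14678 to 17962 CPM in 4CB embryos, with a median of 15653, and 17621 to 20627 CPM in 2CB embryos, with a median of 18717. The 12 embryos of the 2CB and 4CB kinds were all above the 12 of the 1C and 8CB kinds, and the ratio of the 2 medians over 12 embryos each was 1.48. Without the 5 genes with the most UMIs the sums of the 2 sides again did not overlap, at 8422 CPM or more against 7157 CPM or less. For complex I subunits the lowest 2CB or 4CB embryo had 4827 CPM and the highest 1C or 8CB embryo 4488 CPM, and for complex V the same limits were 3870 and 3026 CPM. The sums of complex II and complex III overlapped between the sides. The sum of complex IV overlapped throughout, with medians of 3779, 4649, 4710 and 3681 CPM in 1C, 8CB, 2CB and 4CB embryos, but without Cox6c it did not overlap, at 1545 CPM or more against 1411 CPM or less. These sums are shares of an embryo's UMIs, and in whole embryos fewer cells of a type and less RNA per cell cannot be told apart.

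**Figure D1:**
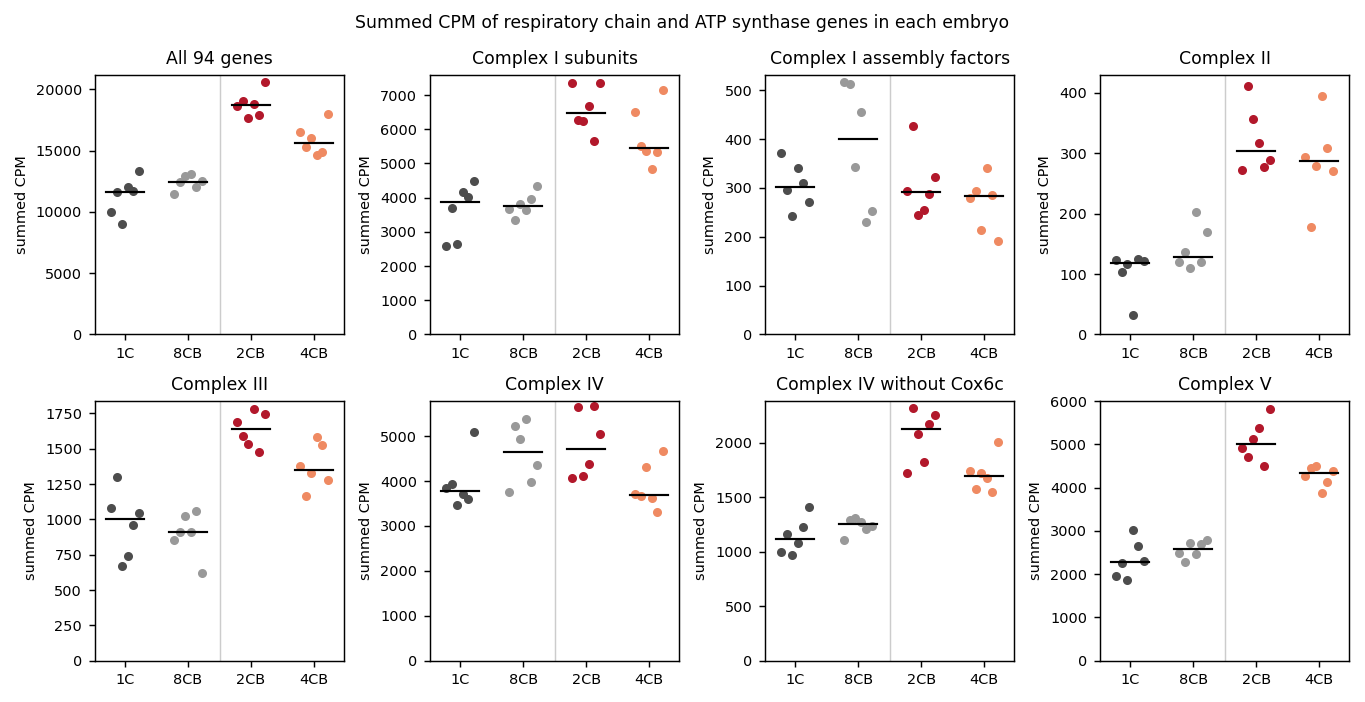
Summed CPM of the genes of each complex in each embryo (y axis, linear), by kind of embryo (x axis). Each point is 1 of 6 embryos, the bar is the median, and the vertical line separates the 2 library pools. The 2CB and 4CB embryos lie above all 1C and 8CB embryos for all 94 genes, complex I, complex V and complex IV without Cox6c, and overlap them for the complex I assembly factors and for complex IV with Cox6c.

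Across the pools, with 2CB and 4CB embryos set against 1C and 8CB embryos, 40 of the 67 tested genes were higher and 3 were lower at an adjusted p below 0.1, and 24 were not called. Over all 5940 genes tested, 31.2% were called higher and 23.9% lower in this comparison. The median log2 fold change was 0.70 over the 67 genes and 0.12 over all genes. Values above 0 were found in 58 of the 67, beside 55.0% of all genes. For any difference among the 4 kinds of embryo, 35 of the 67 were called, against a background of 46.9%. In 4 of the 67 genes, Ndufb9, Uqcrc1, Ndufa4 and Atp5a1, every 2CB and 4CB embryo was above every 1C and 8CB embryo, which held for 3.54% of all genes. No member had all 12 below, against 2.21% of all genes. The adjusted p is from edgeR's quasi-likelihood test with Benjamini-Hochberg adjustment over the 5940 genes. Fold changes are relative to the whole library after TMM scaling and give no absolute amount of RNA.

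**Figure D2:**
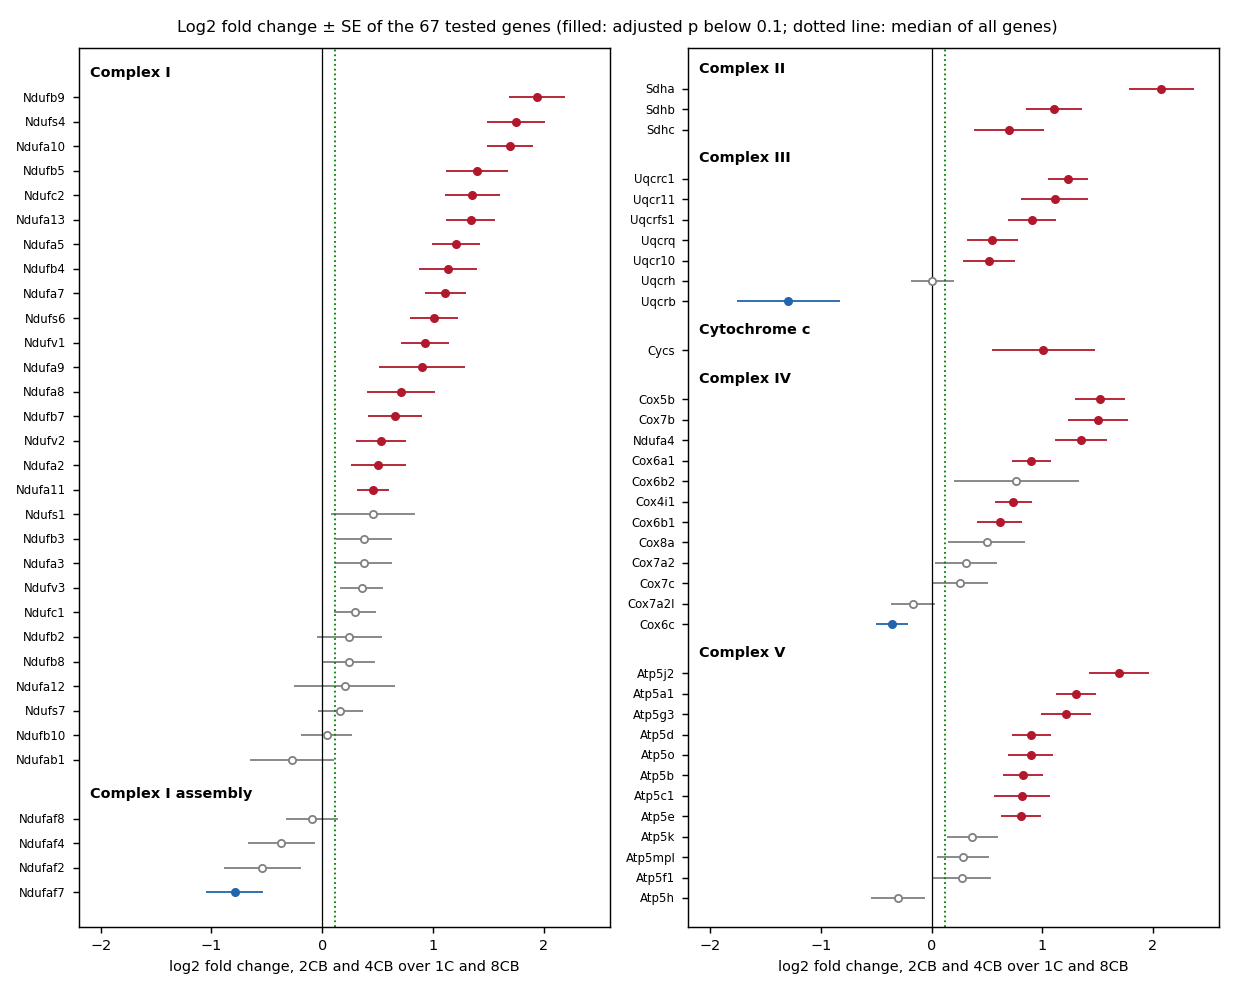
Log2 fold change of the 67 tested genes in 2CB and 4CB over 1C and 8CB embryos (x axis), with its standard error, grouped by complex. Filled points passed an adjusted p below 0.1, red for higher and blue for lower. Open points did not, and the dotted line is the median of all genes at 0.12. The 3 genes that fell are Ndufaf7, Uqcrb and Cox6c.

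In complex I, 17 of 28 tested subunits rose, none fell and 11 were not called, beside 31.2% of all genes higher and 23.9% lower. Coordinates of genes are those of GENCODE M21 on GRCm38. The 3 with the largest change were accessory subunits, which surround the catalytic core. Ndufb9 (chr15:58933756-58939488), of the membrane arm, was at 6.86 to 52.5 CPM in 1C and 21.3 to 68.2 CPM in 8CB embryos. It was at 111 to 273 CPM in 2CB and 93.8 to 257 CPM in 4CB embryos, so the sides did not overlap. Its log2 fold change was 1.94 ± 0.25 (SE), a 3.84-fold difference (adjusted p = 2.41e-07). Ndufs4, which sits beside the NADH-oxidizing module, had medians of 19.7, 14.6, 70.0 and 52.9 CPM in 1C, 8CB, 2CB and 4CB embryos. In 11 of the 12 2CB and 4CB embryos it was above the highest of the others, at a log2 fold change of 1.75 ± 0.27 (SE) (adjusted p = 2.96e-06). Ndufa10 rose by 1.70 ± 0.21 (SE) on the log2 scale (adjusted p = 1.1e-07), with medians of 274, 227, 846 and 813 CPM in the same order.

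The 7 nuclear-encoded core subunits of complex I, which hold the flavin and the iron-sulfur clusters, were less well covered, and 4 of them were tested. Ndufv1, which binds NADH, rose by 0.93 ± 0.22 (SE) on the log2 scale (adjusted p = 8.73e-04). Its medians were 160 and 208 CPM in 1C and 8CB embryos and 371 and 338 CPM in 2CB and 4CB embryos, and 2 of the 12 were above the highest 1C or 8CB embryo. Ndufv2 rose by 0.53 ± 0.23 (SE) (adjusted p = 0.0517), and Ndufs1, the largest core subunit, was not called at 0.46 ± 0.38 (SE) (adjusted p = 0.332).

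The assembly factors of complex I, which build the complex but are no part of it, were tested for 4 of 8. None of the 4 rose and 1 fell, beside 31.2% of all genes higher and 23.9% lower. All 4 had a log2 fold change below 0, where 55.0% of all genes were above 0. The median of the 4 was -0.46. Ndufaf7, a methyltransferase needed during assembly, was at 32.1 to 93.3 CPM in 1C, 93.8 to 202 CPM in 8CB, 18.2 to 88.9 CPM in 2CB and 29.0 to 95.7 CPM in 4CB embryos. Every 8CB embryo was above every 1C embryo, and the other 3 kinds overlapped. The log2 fold change of -0.79 ± 0.26 (SE) (adjusted p = 0.0116) combined 0.00 ± 0.38 (SE) for 2CB against 1C with -1.58 ± 0.37 (SE) for 4CB against 8CB embryos. Whether those 2 values differ was not tested. The last 400 bases of Ndufaf7 transcripts matched transcripts of 31 other genes at 95% identity or more over at least 100 bases, so its counts are uncertain.

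In complex II, all of whose subunits are nuclear-encoded, the 3 tested subunits rose, beside 31.2% of all genes. Their median log2 fold change was 1.11. Sdha (chr13:74322254-74350280), the flavoprotein that oxidizes succinate, had the largest change of the 67 genes. It was at 0 to 29.2 CPM in 1C, 19.7 to 84.6 CPM in 8CB, 83.8 to 117 CPM in 2CB and 51.0 to 145 CPM in 4CB embryos, and 7 of the 12 2CB and 4CB embryos were above all others. Its log2 fold change was 2.07 ± 0.29 (SE), a 4.21-fold difference (adjusted p = 1.13e-06). The value was 2.69 for 2CB against 1C and 1.46 for 4CB against 8CB embryos. Within a pool it was 0.98 for 8CB against 1C embryos and was not called. Whether these values differ was not tested. Counts of Sdha were low in 1C and 8CB embryos, at 0 to 10 and 3 to 12 UMIs an embryo. Sdhb, the iron-sulfur subunit, rose by 1.11 ± 0.26 (SE) (adjusted p = 6.69e-04), with medians of 56.9, 43.6, 122 and 122 CPM in 1C, 8CB, 2CB and 4CB embryos. Sdhc, a membrane anchor, rose by 0.70 ± 0.31 (SE) (adjusted p = 0.0652), and the call was lost when any of 5 embryos was left out. The other anchor, Sdhd, was not tested, with 5, 11, 153 and 62 UMIs over the 1C, 8CB, 2CB and 4CB embryos.

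In complex III, 5 of 7 tested genes rose, 1 fell and 1 was not called, beside 31.2% of all genes higher and 23.9% lower. Uqcrc1 (chr9:108936633-108949623), a core subunit, was at 152 to 337 CPM in 1C, 157 to 386 CPM in 8CB, 420 to 889 CPM in 2CB and 417 to 593 CPM in 4CB embryos. The 2 sides did not overlap, and the log2 fold change was 1.23 ± 0.18 (SE) (adjusted p = 1.63e-06). Uqcrfs1, the Rieske iron-sulfur protein, rose by 0.91 ± 0.22 (SE), and the small subunit Uqcr11 by 1.11 ± 0.30 (SE). Uqcrb (chr13:66900617-66905378), which contacts the ubiquinone site, went the other way, at 56.6 to 216 CPM in 1C, 3.11 to 107 CPM in 8CB, 4.78 to 75.1 CPM in 2CB and 3.99 to 58.4 CPM in 4CB embryos. The 4 kinds overlapped, and the median was highest in 1C embryos, at 120 CPM. Its log2 fold change was -1.29 ± 0.46 (SE) (adjusted p = 0.022). In 2CB against 1C embryos it was -1.80 ± 0.63 (SE) (adjusted p = 0.0281), and in 4CB against 8CB embryos -0.79 ± 0.68 (SE) (adjusted p = 0.4). Uqcrb has 3 near-identical pseudogenes, to which 4 UMIs in all were assigned. Cyc1, the cytochrome c1 subunit that the symbols used above do not take in, rose by 1.32 ± 0.20 (SE).

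Cytochrome c itself, Cycs, which shuttles electrons between complexes III and IV, was covered thinly, with 16, 22, 118 and 71 UMIs over the 1C, 8CB, 2CB and 4CB embryos. Its mean CPM was 14.5, 14.9, 28.2 and 27.4 in the same order. Cycs was called higher at a log2 fold change of 1.01 ± 0.46 (SE) (adjusted p = 0.0707). The highest single value, 61.8 CPM, was in a 1C embryo, and leaving out any of 7 single embryos ended the call.

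In complex IV, 6 of 12 tested genes rose, 1 fell and 5 were not called, beside 31.2% of all genes higher and 23.9% lower. Cox5b, the zinc-binding subunit, had medians of 46.5 and 58.0 CPM in 1C and 8CB embryos and 184 and 131 CPM in 2CB and 4CB embryos, and rose by 1.53 ± 0.23 (SE) on the log2 scale (adjusted p = 2.19e-06). Cox7b rose by 1.50 ± 0.27 (SE) (adjusted p = 3.05e-05). Ndufa4 (chr6:11900292-11907497) was at 13.7 to 40.5 CPM in 1C, 14.1 to 30.8 CPM in 8CB, 57.1 to 93.5 CPM in 2CB and 41.6 to 70.2 CPM in 4CB embryos. Its 2 sides did not overlap, and it rose by 1.35 ± 0.23 (SE) (adjusted p = 1.88e-05).

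Cox6c (chr15:35925886-35938246), one of the small subunits of complex IV, fell by 0.36 on the log2 scale, with an SE of 0.14 (adjusted p = 0.0376). It was at 2380 to 3680 CPM in 1C, 2655 to 4101 CPM in 8CB, 2038 to 3496 CPM in 2CB and 1771 to 2662 CPM in 4CB embryos. The 4 kinds overlapped. The median was lowest in 4CB embryos, at 2022 CPM, and highest in 8CB embryos, at 3374 CPM, with 2714 and 2675 CPM in 1C and 2CB embryos. The log2 fold change was -0.03 ± 0.20 (SE) for 2CB against 1C and -0.69 ± 0.20 (SE) for 4CB against 8CB embryos (adjusted p = 0.0094). The 2 near-identical pseudogenes of Cox6c were at 0 UMIs.

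**Figure D3:**
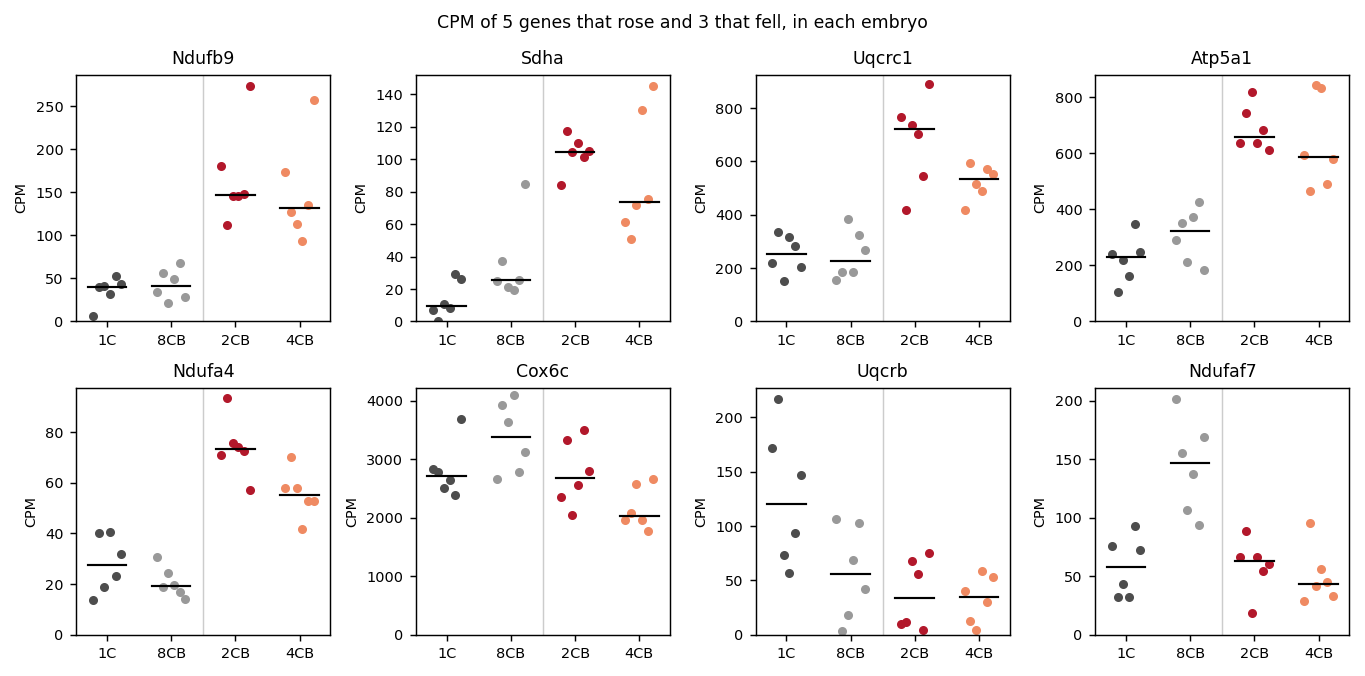
CPM (y axis, linear) of Ndufb9, Sdha, Uqcrc1, Atp5a1 and Ndufa4, which rose, and of Cox6c, Uqcrb and Ndufaf7, which fell, across the 2 pools. Each point is 1 of 6 embryos, the bar is the median, and the vertical line separates the 2 library pools. The 12 embryos of each side are apart for Ndufb9, Uqcrc1, Atp5a1 and Ndufa4, the median is highest in 8CB embryos for Ndufaf7 and in 1C embryos for Uqcrb.

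Several subunits of complex IV exist as isoforms that different tissues use, and subunit c of the ATP synthase is encoded by several genes. Levels of different genes are given per kilobase of the gene length in the table and also as plain CPM, since counts of 3' ends need not grow with length. Per kilobase, the widely used Cox4i1 was at 146, 183, 298 and 266 CPM in 1C, 8CB, 2CB and 4CB embryos, and its counterpart Cox4i2 at 16.6, 8.20, 3.62 and 0 CPM. In plain CPM the means were 227, 284, 462 and 412 for Cox4i1 and 13.1, 6.46, 2.85 and 0 for Cox4i2. Cox4i1 rose by 0.74 ± 0.17 (SE) on the log2 scale (adjusted p = 6.6e-04), whereas Cox4i2 had 31 UMIs in all and was not tested. The 1C mean of Cox4i2 rests mainly on embryo 4, with 9 UMIs and 72.8 CPM, beside 2 UMIs in embryo 5 and 0 in the others. The muscle-type isoforms Cox6a2 and Cox8b and the testis-type isoforms Cox7b2 and Cox8c had 0 to 7 UMIs over the 24 embryos, and the muscle-type Cox7a1 had 53. Their widely used counterparts gave 2 outcomes: Cox6a1, Cox6b1 and Cox7b rose, and Cox7a2 and Cox8a were not called.

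Cox6b2, known as the testis isoform of its subunit, had the most UMIs of the tissue-restricted genes, with 112, 26, 231 and 159 UMIs in 1C, 8CB, 2CB and 4CB embryos. Per kilobase it was at 81.5, 22.7, 66.8 and 68.5 CPM, and Cox6b1 at 174, 203, 347 and 258 CPM. In plain CPM the means were 90.3, 25.2, 74.0 and 75.9 for Cox6b2 and 123, 144, 245 and 183 for Cox6b1, so the ratio of these genes depends on the scale. Cox6b2 varied widely within each kind, from 5.43 to 273 CPM in 1C and from 0 to 93.8 CPM in 8CB embryos, and its log2 fold change of 0.77 ± 0.56 (SE) was not called (adjusted p = 0.271). Of the 3 genes that encode the same subunit c of the ATP synthase ring, Atp5g3 was the highest. Per kilobase Atp5g3 was at 70.2 to 233 CPM, as means of the 4 kinds, against 2.53 to 4.48 CPM for Atp5g1 and 0.868 to 3.33 CPM for Atp5g2, and in plain CPM Atp5g3 was at 153 to 509, Atp5g1 at 12.4 to 22.0 and Atp5g2 at 1.45 to 5.57. Ndufa4l2, the relative of Ndufa4 that is known to be induced in low oxygen, had 5 UMIs in all. The embryos had been cultured below the oxygen level of air.

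**Figure D4:**
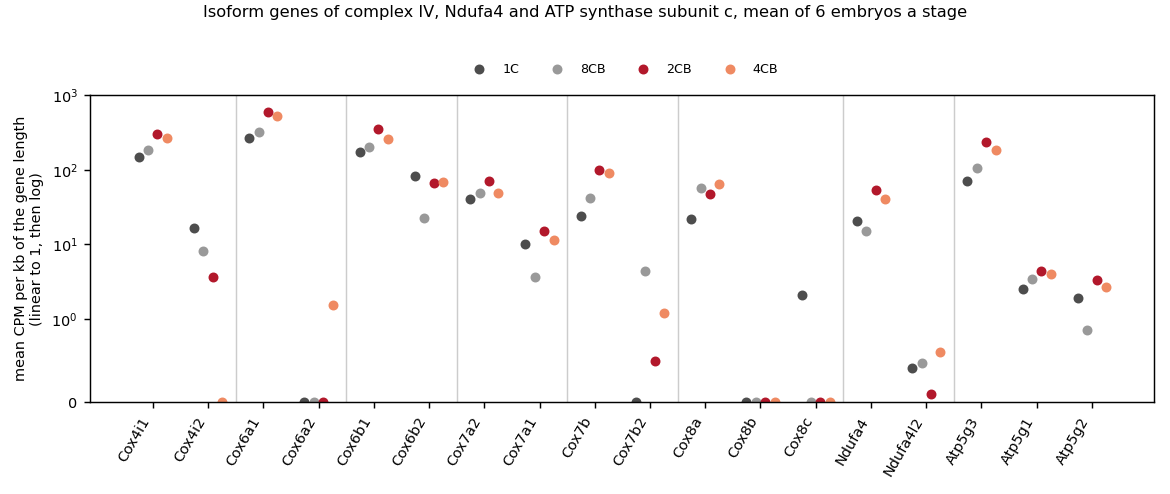
Mean CPM per kilobase of gene length (y axis, linear up to 1 and logarithmic above) of isoform genes and genes of ATP synthase subunit c. Points are by kind of embryo, each the mean of 6 embryos. Vertical lines separate the families. In every kind of embryo Cox4i1, Cox6a1, Cox6b1, Cox7a2, Cox7b, Cox8a, Ndufa4 and Atp5g3 lie above their relatives, and Cox6b2, at 22.7 to 81.5 CPM per kilobase, is the highest of the relatives.

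In complex V, 8 of 12 tested genes rose and none fell, beside 31.2% of all genes higher and 23.9% lower. The 5 genes of the catalytic F1 head all rose, by 0.81 to 1.30 on the log2 scale. Atp5a1, subunit alpha, was at 104 to 347 CPM in 1C, 183 to 426 CPM in 8CB, 613 to 819 CPM in 2CB and 466 to 843 CPM in 4CB embryos. The sides did not overlap, at a log2 fold change of 1.30 ± 0.18 (SE) (adjusted p = 8.31e-07). Of the membrane part and stalk, 3 of 7 tested genes rose, with a median over the 7 of 0.37. Atp5j2, subunit f, rose by 1.69 ± 0.27 (SE) (adjusted p = 6.09e-06), with medians of 24.2, 39.6, 130 and 86.8 CPM in 1C, 8CB, 2CB and 4CB embryos. Atp5g3 rose by 1.21 ± 0.23 (SE) (adjusted p = 5.37e-05). Atp5h, of the stalk, was not called at -0.31 ± 0.25 (SE).

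The comparisons across the pools can be split into 2 that share no embryo. Both set the same 2 pooled libraries against each other, so stage and pool cannot be told apart in either. One is therefore no replicate of the other. In 2CB against 1C embryos, 38 of the 67 genes were higher and 1 lower, against 23.9% and 17.4% of all genes, and the median log2 fold change was 0.84 over the 67 and 0.10 over all genes. In 4CB against 8CB embryos, 25 were higher and 2 lower, against 23.1% and 16.9% of all genes, with medians of 0.48 and 0.13. Thinning every embryo to 70941 UMIs left 14 calls in the second comparison, 12 higher and 2 lower, in place of 27. Every complex had a positive median in both, from 0.74 to 1.17 in the first and from 0.41 to 1.04 in the second, except the complex I assembly factors, at -0.26 and -0.63.

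Within the pools edgeR called no member. In 4CB against 2CB embryos edgeR called 0 of the 67 higher and 0 lower, against 0.0337% and 0.0% of all genes, and DESeq2 also called 0. At an unadjusted p below 0.05 there were 4, all lower in 4CB embryos, against 4.31% of all genes in either direction. They were Ndufv3 at -0.85 ± 0.27 (SE), Uqcrh at -0.75 ± 0.28 (SE), Ndufc1 at -0.54 ± 0.26 (SE) and Cox7a2l at -0.58 ± 0.28 (SE) on the log2 scale. Of the 67 log2 fold changes, 10 were above 0 and 57 below, where 48.9% of all genes were above 0. Their median was -0.21 beside -0.01 over all genes. Genes of the same embryos are not replicates, so these counts are a description. The sums of the 94 genes overlapped between the 2 kinds, with the highest 4CB embryo at 17962 CPM and the lowest 2CB embryo at 17621 CPM.

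In 8CB against 1C embryos edgeR called 0 higher and 0 lower, against 0.0% and 0.0% of all genes, while DESeq2 called 1, Ndufaf7. At an unadjusted p below 0.05 there were 5 higher and 1 lower, against 9.28% of all genes. Ndufaf7 was at 1.28 ± 0.36 (SE) on the log2 scale, Ndufb3 at 0.86 ± 0.37 (SE), Cox7b at 0.89 ± 0.41 (SE), and Cox6b2 at -2.05 ± 0.87 (SE). The median over the 67 was 0.13, beside 0.00 over all genes, and it was 0.30 without 1 of the 1C embryos, replicate 6.

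**Figure D5:**
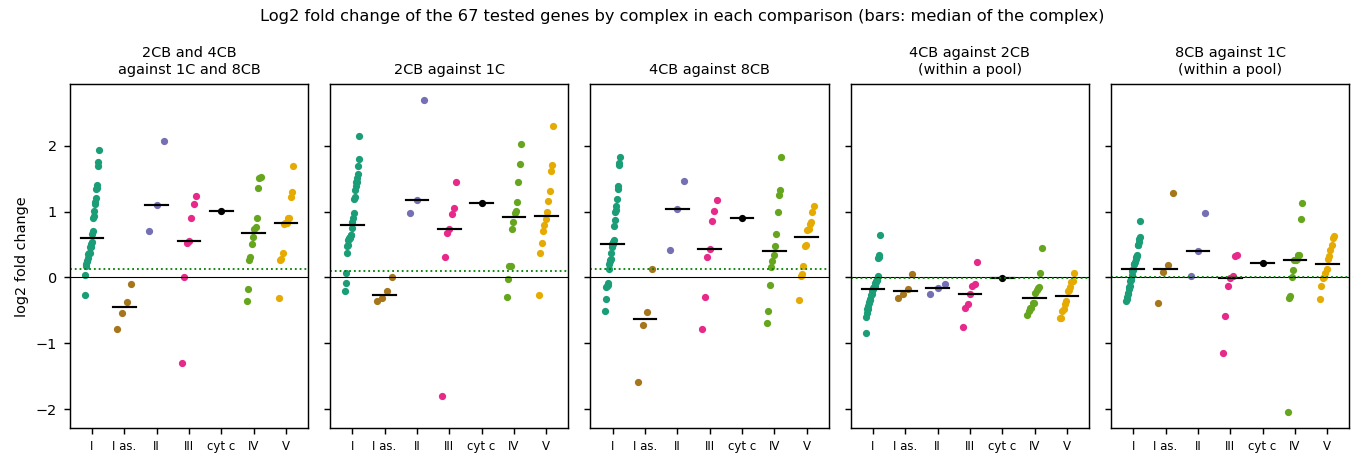
Log2 fold change (y axis) of the 67 tested genes in 5 comparisons, 1 panel each, grouped by complex (x axis; I as., complex I assembly factors; cyt c, cytochrome c). Each point is a gene, the bar is the median of the complex, and the dotted line is the median of all genes. Medians of the complexes lie between 0.41 and 1.17 in the panels across the pools, apart from the assembly factors at -0.63 to -0.26, and between -0.31 and 0.40 within the pools.

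Other genes of the same pathway were counted in the same fit. Across the pools, 31.2% of all genes were called higher and 23.9% lower, with a median log2 fold change of 0.12. Of 40 further assembly, copper and heme factors, 22 were tested across the pools, and 10 rose and 3 fell in 2CB and 4CB embryos, with a median log2 fold change of 0.53. Those that rose included Coa3 at 1.19 ± 0.23 (SE), Cox15 at 1.53 ± 0.34 (SE) and Ttc19 at 1.26 ± 0.32 (SE). Coa3 and Cox15 serve complex IV, the latter in making its heme, and Ttc19 serves complex III. The 3 that fell were Uqcc3 at -1.37 ± 0.28 (SE), Uqcc1 at -0.95 ± 0.30 (SE), both for complex III, and Surf1 at -0.71 ± 0.27 (SE), for complex IV. Other mitochondrial genes, for protein import, channels and carriers, gave 4 higher and 2 lower of 17 tested, with a median of 0.08. Neither count exceeded the share over all genes. Among the 17, the ADP/ATP carrier Slc25a5 rose by 1.86 ± 0.29 (SE) and the phosphate carrier Slc25a3 by 0.76 ± 0.22 (SE), both of which supply the ATP synthase. The import subunits Timm17a and Timm10 fell, Timm17a by 1.08 on the log2 scale with an SE of 0.20.

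Of 14 regulators of respiratory chain genes and mitochondrial DNA, 8 were tested. Of these, 1 rose and 3 fell, beside 31.2% and 23.9% of all genes. Ppargc1b, a coactivator of these genes, rose by 3.09 ± 0.46 (SE), with 9, 6, 158 and 123 UMIs in 1C, 8CB, 2CB and 4CB embryos (adjusted p = 2.41e-06). Yy1 fell by 1.11 on the log2 scale with an SE of 0.20, Gabpa by 0.94 with an SE of 0.32, and the mitochondrial RNA polymerase Polrmt by 0.73 with an SE of 0.36. Nrf1, the gene of nuclear respiratory factor 1, was at -0.06 ± 0.25 (SE) and was not called. Ppargc1a had 4 UMIs in all and Tfam, which was not tested, had 227.

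Promoters of the members were searched for short motifs of 3 of these factors, as a description. RefSeq promoters of 300 bases on GRCm38.p6, from 250 before to 50 after the start, were given for 75 of the 94 genes, as 80 windows. The motif of nuclear respiratory factor 1, CGCANGCG, was found on either strand in 40.0% of these windows and in 8.21% of all 32851 windows. That of YY1, AAGATGGC, was in 12.5% against 2.75%, and that of GABPA, CCGGAAGT, in 6.25% against 3.89%. Among tested members, 16 of 22 with the first motif and 18 of 34 without it rose, beside 31.2% of all genes. Their median log2 fold changes were 0.90 and 0.64. For YY1, 4 of 9 with the motif and 30 of 47 without it rose, with medians of 0.37 and 0.81. For GABPA, 1 of 4 and 33 of 52 rose, with medians of 0.25 and 0.81. The part of the motifs in these changes was not tested. The 32851 windows were not limited to genes expressed in these embryos, nor matched to the members in base composition. A match is a run of letters and not a binding site. Below are 4 windows of genes that rose, 2 with the first motif, 1 with the second and 1 with none, each read 5' to 3' on the strand of the gene and with matches in capitals. Sdha (chr13:74350191-74350490, minus strand) has 3 matches, starting 97, 54 and 9 bases before the start. Uqcrc1 (chr9:108936398-108936697, plus strand) has 2, starting 6 and 31 bases after it. Atp5j2 (chr5:145191492-145191791, minus strand) has 1 of YY1, 23 bases after it, and Ndufa4 (chr6:11907401-11907700, minus strand) has none of the 3.
Sdha: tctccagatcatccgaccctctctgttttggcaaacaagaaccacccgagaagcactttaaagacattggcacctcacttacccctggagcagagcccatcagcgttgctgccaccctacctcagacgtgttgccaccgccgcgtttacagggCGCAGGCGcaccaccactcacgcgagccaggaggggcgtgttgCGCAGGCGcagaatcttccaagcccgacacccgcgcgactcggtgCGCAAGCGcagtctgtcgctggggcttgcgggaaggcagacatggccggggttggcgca
Uqcrc1: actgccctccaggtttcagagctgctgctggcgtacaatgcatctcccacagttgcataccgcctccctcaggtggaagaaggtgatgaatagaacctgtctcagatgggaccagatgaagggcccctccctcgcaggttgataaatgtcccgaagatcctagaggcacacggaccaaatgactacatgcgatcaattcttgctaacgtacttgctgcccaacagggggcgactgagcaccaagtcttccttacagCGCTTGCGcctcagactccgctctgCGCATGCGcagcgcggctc
Atp5j2: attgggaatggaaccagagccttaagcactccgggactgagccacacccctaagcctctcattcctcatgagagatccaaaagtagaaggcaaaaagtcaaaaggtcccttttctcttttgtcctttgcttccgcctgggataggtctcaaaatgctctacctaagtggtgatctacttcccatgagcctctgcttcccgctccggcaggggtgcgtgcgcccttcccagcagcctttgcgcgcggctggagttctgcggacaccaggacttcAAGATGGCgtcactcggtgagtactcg
Ndufa4: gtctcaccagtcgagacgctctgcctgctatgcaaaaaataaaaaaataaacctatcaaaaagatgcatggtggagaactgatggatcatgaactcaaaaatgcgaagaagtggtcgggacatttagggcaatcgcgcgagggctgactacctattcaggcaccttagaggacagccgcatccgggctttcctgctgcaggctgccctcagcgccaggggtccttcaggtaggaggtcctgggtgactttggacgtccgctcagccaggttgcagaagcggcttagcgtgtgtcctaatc

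Markers of the cell types of the embryo moved with the same division, across which 31.2% of all genes were called higher and 23.9% lower. Of 10 trophectoderm markers, 8 rose and 1 fell in 2CB and 4CB embryos, and their summed level was 2693 to 5723 CPM there and 576 to 1191 CPM in 1C and 8CB embryos. Elf5, a trophectoderm transcription factor, had 0, 1, 599 and 555 UMIs in 1C, 8CB, 2CB and 4CB embryos, and Cdx2 35, 17, 359 and 183. Of 6 tested epiblast markers 2 rose and 3 fell, with sums of 550 to 1951 CPM in 1C and 8CB and 313 to 1127 CPM in 2CB and 4CB embryos. Of 5 tested primitive endoderm markers 4 rose and 1 fell, with sums of 761 to 1367 CPM against 1239 to 2464 CPM. Cumulus cell markers were at or near 0, with 5 of 7 at 0 UMIs. The part of the marker shift in the changes of the 67 genes was not tested.

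Some members cannot be counted cleanly. Of the 94, 24 had a near-identical stretch in transcripts of genes elsewhere, 18 of them among the 67, and 29 overlapped exons of a gene on the opposite strand. On the same strand, 5 overlapped exons of another annotated gene. Of these, 4 were among the 67, including Ndufb9, which overlaps Gm49356. Several processed pseudogenes had counts of their own, and 3 of them had over 100 UMIs. Gm10012, a copy of Cox7c, had 685 UMIs beside 468 for Cox7c, and rose by 1.03 ± 0.23 (SE) where Cox7c was not called at 0.26 ± 0.25 (SE). Gm15920, a copy of Ndufa12, had 368 UMIs beside 425, and Gm10250, a copy of Atp5h, 256 beside 423, and neither copy was called. Among the others, Gm10175, a copy of Atp5g2, had 32 UMIs beside 42, and BC002163, a copy of Ndufs5, 12 beside 29. Of subunits that every respiring cell uses, Cox5a had 15 UMIs over all embryos, Ndufb6 11, Ndufs5 29, Uqcrc2 35 and Atp5j 59, and they were not tested. Each of these 5 also shares a stretch with another gene within the last 400 bases of at least 1 annotated transcript. For Cox5a, Ndufb6, Uqcrc2 and Atp5j that gene lies on the opposite strand, and for Cox5a it is annotated as a bidirectional promoter RNA. Whether the stretch lies at the 3' end that was counted was not examined, and its part in the low counts was not tested.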

How the data were processed

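Single embryos were captured and sequenced by CEL-Seq2. The deposited UMI counts per gene were made by the authors with HISAT2 2.2.6 on GRCm38 and HTSeq 0.6.1, which counted 1 consensus read per UMI. The strand setting and annotation release are not given in the sources used here, so overlapping genes on opposite strands may not be separable. The largest count, 53029 for a gene in an embryo, exceeds the number of UMIs that 6 bases allow. Symbols were taken from GENCODE M21 for 51719 of 52366 genes, and 24 columns of other embryos were not used.

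Counts were tested in edgeR 4.0.16 under R 4.3.3 by the robust quasi-likelihood test, with TMM scaling, filterByExpr by stage, all 24 embryos in 1 fit and no covariate, at a Benjamini-Hochberg adjusted p below 0.1 over 5940 genes. The comparisons were contrasts of that fit. The scripts were tested on simulated data. Each unit of the fit is 1 embryo, and p-values measure the spread between embryos. Across the pools each side is 1 pooled library, so these p-values do not measure the spread between libraries. CPM used all counted UMIs of an embryo. Alternatives were DESeq2 1.42.0, its size factors, 2 other filters, thinning to 70941 UMIs, a replicate block and leaving out each embryo. Stretches shared with other genes were sought with BLAST+ 2.17.0 in the last 400 bases of transcripts, at 95% identity over at least 100 bases. Figures were drawn with matplotlib 3.10.9.

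The members and all gene lists were chosen with earlier results of these data known. Genes named were, per complex, the 3 that rose most and all that fell, members whose sides did not overlap, complex II and Cycs, isoform pairs, up to 3 core subunits of complex I, up to 3 each way within pools by unadjusted p, and up to 3 each way per other list. Sdhd, the low-count subunits, the copies, Elf5, Cdx2, Atp5h, Ppargc1a, Tfam and Nrf1 were added after their values were seen or for context. The values of 1 member are not reported here.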

Additional observations from a re-analysis of the deposited data

Results flagged for a closer look

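Among 156 groups of 6 embryos, 14 held an embryo set apart from the other 5 by Dixon's 95% critical value. For normally distributed values chance gives about 1 group in 20, and low counts need not follow that distribution. In complex I, Ndufv3 was at 283 CPM in 4CB embryo 6, where the others were at 108 to 173 CPM. In complex II, Sdha was at 84.6 CPM in 8CB embryo 6 (others 19.7 to 37.4 CPM), and Sdhb at 8.09 CPM in 1C embryo 4 (others 54.9 to 67.9 CPM) and at 115 CPM in 8CB embryo 4 (others 25.6 to 45.6 CPM). The summed level of complex II was 32.4 CPM in 1C embryo 4 and 104 to 125 CPM in the others. In complex III, Uqcrfs1 was at 545 CPM in 2CB embryo 2 (others 258 to 335 CPM). Cycs was at 61.8 CPM in 1C embryo 1 and 0 to 8.02 CPM in the others. Some of these values rest on few UMIs, with 6 for Sdha in 8CB embryo 6 and 1 for Sdhb in 1C embryo 4. Cycs had 9 UMIs in 1C embryo 1.

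In complex IV, Cox7a2l was at 544 CPM in 2CB embryo 6 (others 203 to 321 CPM) and at 536 CPM in 8CB embryo 6 (others 188 to 300 CPM). Cox6b2 was at 225 CPM in 4CB embryo 1 (others 27.9 to 79.1 CPM) and at 93.8 CPM in 8CB embryo 5 (others 0 to 19.7 CPM). The value in 8CB embryo 5 came from 11 UMIs. Cox6c was at 3680 CPM in 1C embryo 6 (others 2380 to 2834 CPM), and the summed level of complex IV in that embryo was 5091 CPM (others 3472 to 3944 CPM). In complex V, Atp5g3 was at 1031 CPM in 2CB embryo 2 (others 262 to 480 CPM). The causes were not tested.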

How the results depend on the processing

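No direction of a summary value or count was reversed under the alternatives run. Across the pools the number of members called, 43, ranged from 34 after thinning to 45 with DESeq2, and from 39 to 44 when single embryos were left out. In 4CB against 8CB embryos 27 calls became 16 without a filter and 14 after thinning, of which 12 and 14 were among the 27. In 8CB against 1C embryos 0 calls became 1 with DESeq2, Ndufaf7 higher, and 1 without a filter, Cox6b2 lower. Without a filter the median log2 fold change was 0.58 across the pools and -0.35 in 4CB against 2CB embryos. In 8CB against 1C embryos that median ranged from 0.092 to 0.30 when single embryos were left out. The median sums in 1C, 2CB, 4CB and 8CB embryos were 6309, 11205, 9715 and 6855 CPM without the 5 genes with the most UMIs. With library sizes that leave out the 10 genes with the most UMIs they were 20657.7, 16968.6 and 13565.5 CPM in 2CB, 4CB and 8CB embryos. The causes were not tested.

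The embryo numbers gave no sign of pairing: of 36 pairs of the same number, the correlation of deviations from the group means averaged -0.0156 and ranged from -0.248 to 0.224. With a replicate block on that number, 43 members were called. Of the genes named, the calls of Cycs, Sdhc, Ndufv2, Uqcr11 and Cox6c were lost across the pools under at least 1 alternative, and Ndufv3, Ndufc1 and Cox6b2 were called there under 5, 1 and 1 of 30. The log2 fold change of Cycs ranged from 0.33 to 1.62. The 27 members under the filter on low counts were not tested, and stage and pool cannot be told apart across the 2 sides.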
